A study of Rattus norvegicus with 12 samples.

Results

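The interferon response genes described here are 51 rat genes: the receptors that bind interferons, the factors that carry the signal to the nucleus, and the genes that those factors switch on. They were taken by name, and a probe was matched to a gene through its RefSeq accession. Of the 51 genes, 42 had a probe on the array, always 1 probe a gene, among 13897 genes with a probe in all. The 9 others (Ifnar2, Rigi, Zbp1, Oas3, Samhd1, Gbp4, Xaf1, Ifi44l and Parp14) were not analysed here. Of the 42 genes, 41 rose well above background on 3 or more of the 12 arrays and were tested, and 38 of these were well above background on all 12 arrays.

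Total RNA of veins from male rats was hybridised to 12 single-colour Agilent arrays, with 3 arrays a day. Day 0 stands for veins of control rats that were not operated on. Days 7, 14 and 28 count the time since a bypass was made between the carotid artery and an external jugular vein segment, a thin-walled vessel then exposed to arterial pressure and flow. Neither strain nor age is given in the sources used here, and no sham-operated group stands among the arrays, so grafting, surgery and time cannot be told apart in a comparison with day 0. The experiments at each graft time are described as independent, but no label ties an array to an animal. All p-values therefore rest on the spread among these samples, and that spread may be technical.

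Interferons are cytokines that cells release when they sense viral or misplaced nucleic acid, or that activated T and natural killer cells release. Type I interferons act through the receptor chains IFNAR1 and IFNAR2 and interferon-gamma through IFNGR1 and IFNGR2, and Janus kinases at these receptors activate STAT proteins. STAT2 and IRF9 are subunits of the complex ISGF3, which binds the interferon-stimulated response element (ISRE). Pairs of activated STAT proteins bind the gamma-activated site (GAS). In vessel walls, macrophages, smooth muscle cells and endothelial cells can all respond to interferon.

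Values are processed intensities on the log2 scale, with the array's own 75th percentile subtracted, so that a value of 0 is the 75th percentile of all gene spots. Levels of different probes are not set against each other. Differences between days are log2 differences ± SE from limma, fitted on all 12 arrays with 3 per day, and a gene is called where its p, adjusted over all 21063 tested probes, is under 0.05. In bulk vessel RNA, fewer cells of a type and less RNA per cell cannot be told apart.

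Between 71.9% (day 0 replicate 3) and 82.6% (day 7 replicate 2) of gene spots were well above background, and 0 were saturated. All 5 smooth muscle and all 6 endothelial markers with a probe passed the filter. So did 21063 of 24684 probes, so this cannot check the label of vein. Of the 12 arrays, 2 stood apart by spots that the scanner marked as non-uniform: day 0 replicate 3 had 460 such spots and day 7 replicate 3 had 393, against 2 to 11 on the other arrays. The arrays fell into 4 scans. All day 7 arrays were in 1 scan with 1 day 14 array, 2 day 0 arrays were with 1 day 28 array, 2 arrays of day 14 were with 2 of day 28, and day 0 replicate 3 was scanned apart. No scan held both day 7 and day 0 arrays, so that difference rests on links through other days once scans are separated. With the scan as a fixed block in limma, 0 of 41 members were called at day 7, and 0.171% of all probes were called higher. At an unadjusted p under 0.05, 15 members were higher and 0 lower, and all probes were not counted at that threshold. With that block 3 members were called higher than day 0 at day 14 (Irf5, Irf8 and Dhx58) and 2 at day 28 (Irf5 and Dhx58), where 3.0% and 3.49% of all probes were called higher, so the share of members at day 28 was near that of all probes. The 29, 22 and 20 members called without the block at days 7, 14 and 28 all had the same sign with it, and the median log2 differences of the 41 members were then 1.20, 0.64 and 0.52. The part of the scans in the results below was not tested beyond these values.

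Promoter sequences of 41 of the 51 members come from RefSeq on the GRCr8 assembly, in windows of 250 bases before to 50 after the gene start. An ISRE core (GAAANNGAAA, either strand) was present in 26 of these 41 windows (63.4%), against 1312 of 33469 windows of all RefSeq promoters (3.92%). A GAS motif (TTCNNNGAA, either strand) was present in 13 of the 41 (31.7%), against 2970 of all (8.87%). By role, the ISRE core was found in 5 of 5 windows of the GTPases, 5 of 5 of the ISG15 group, 5 of 6 of the immunoproteasome and peptide loading genes, 8 of 11 of the antiviral effectors and 2 of 2 of the sensors, in 1 of 7 of the transcription factors, and in 0 of 5 of the ligand and receptor genes. A match is a run of letters and not evidence of binding.

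The following 8 stretches are the 200 bases before the gene start, 5′ to 3′ on the gene's own strand, with ISRE core and GAS matches in capitals. They are examples from the time course, and each stretch shown holds a match. Irf7, Ifit3, Oas1a, Oas1b and Ifi44 fell between day 7 and day 28. Oasl fell between these days as well but is not shown, and its window held no match to either motif. Bst2 was called higher at day 7 and on neither later day, and Irf8 had its highest mean at day 14. Tap1 represents peptide loading and was not called between graft days.
Irf7 (chr1:205800024-205800223, minus strand): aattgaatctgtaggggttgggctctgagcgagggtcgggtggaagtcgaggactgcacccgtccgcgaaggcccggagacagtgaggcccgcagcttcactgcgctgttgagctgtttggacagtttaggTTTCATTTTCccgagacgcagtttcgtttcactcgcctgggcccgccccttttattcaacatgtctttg
Ifit3 (chr1:241527126-241527325, plus strand): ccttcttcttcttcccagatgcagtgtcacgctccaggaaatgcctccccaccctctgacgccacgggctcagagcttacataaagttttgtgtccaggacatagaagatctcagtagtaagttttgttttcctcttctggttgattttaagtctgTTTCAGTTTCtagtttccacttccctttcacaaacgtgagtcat
Oas1a (chr12:41330266-41330465, plus strand): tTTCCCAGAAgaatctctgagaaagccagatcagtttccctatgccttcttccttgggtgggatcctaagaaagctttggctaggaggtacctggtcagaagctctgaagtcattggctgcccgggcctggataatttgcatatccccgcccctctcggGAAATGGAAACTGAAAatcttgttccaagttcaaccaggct
Oas1b (chr12:41395853-41396052, minus strand): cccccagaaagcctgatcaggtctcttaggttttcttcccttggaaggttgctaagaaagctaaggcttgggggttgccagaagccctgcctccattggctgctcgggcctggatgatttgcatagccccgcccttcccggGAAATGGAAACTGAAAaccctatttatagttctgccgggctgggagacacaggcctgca
Ifi44 (chr2:243303841-243304040, minus strand): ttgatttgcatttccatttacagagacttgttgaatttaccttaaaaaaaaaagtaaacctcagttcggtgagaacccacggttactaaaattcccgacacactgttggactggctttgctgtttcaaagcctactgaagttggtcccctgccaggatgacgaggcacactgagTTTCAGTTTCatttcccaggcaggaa
Bst2 (chr16:18254968-18255167, minus strand): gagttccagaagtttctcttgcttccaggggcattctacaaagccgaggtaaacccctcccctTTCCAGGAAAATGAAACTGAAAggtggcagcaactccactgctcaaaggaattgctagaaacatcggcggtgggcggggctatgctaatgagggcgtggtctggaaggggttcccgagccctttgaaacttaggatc
Tap1 (chr20:4668544-4668743, minus strand): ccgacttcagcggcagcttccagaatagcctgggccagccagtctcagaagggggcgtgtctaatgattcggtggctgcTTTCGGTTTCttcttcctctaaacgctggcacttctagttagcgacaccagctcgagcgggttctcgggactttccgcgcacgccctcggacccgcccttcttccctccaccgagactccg
Irf8 (chr19:65699084-65699283, plus strand): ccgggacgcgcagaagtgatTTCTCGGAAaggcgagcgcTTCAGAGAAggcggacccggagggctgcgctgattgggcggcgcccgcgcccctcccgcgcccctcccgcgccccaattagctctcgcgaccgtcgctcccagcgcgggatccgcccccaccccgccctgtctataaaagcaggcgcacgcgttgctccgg

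Irf7 holds 1 ISRE core starting 69 bases before the gene start, and Ifit3 holds 1 at 44 bases. In Oas1a and Oas1b a pair of ISRE cores overlaps, starting 41 and 35 bases before the start of Oas1a and 59 and 53 bases before that of Oas1b. Both also have a GAS match, at 199 bases in Oas1a and at 213 bases in Oas1b, upstream of the printed stretch. Bst2 has a GAS match at 137 bases that runs into overlapping ISRE cores at 131 and 125 bases. Tap1 has 1 ISRE core at 121 bases, and its window shares 44 bases on the opposite strand with that of Psmb9. Irf8 has no ISRE core in its window and 2 GAS matches, at 180 and 161 bases.

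At day 7, 29 of the 41 tested members (70.7%) were higher than in unoperated vein and 0 were lower by limma (0 lower at an unadjusted p under 0.05 too). Over all probes tested, 17.7% were called higher and 15.4% lower in that comparison. The median log2 difference of the members was 1.49, against -0.03 over all probes. At day 14, 21 members were higher and 1 was lower, with 20.1% of all probes higher and 17.4% lower, and the median of the members was 1.07, against 0.02. At day 28, 19 members were higher and 1 lower, with 17.4% of all probes higher and 16.5% lower, and the median was 0.83, against 0.01. These 3 comparisons share the day 0 arrays. The member that was lower at days 14 and 28 was Ifi27.

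Of the 41 members, 17 were called higher on all 3 graft days, 5 on 2 days, 8 on 1 day and 11 on none. Repeated calls are not independent, as the 3 comparisons share the day 0 arrays. The counts of this paragraph were not made over all probes, so they have no share to be set against. The graft mean was highest at day 7 for 33 members, at day 14 for 7 (Ifngr1, Ifngr2, Ifnar1, Irf5, Irf8, Psmb10 and Tapbp) and at day 28 for 1 (Irf3). The 7 members called higher at day 7 and on neither later day were Ifit2, Oas1b, Bst2, Psmb8, Psmb9, Tap1 and Ifi44.

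**Figure D1:**
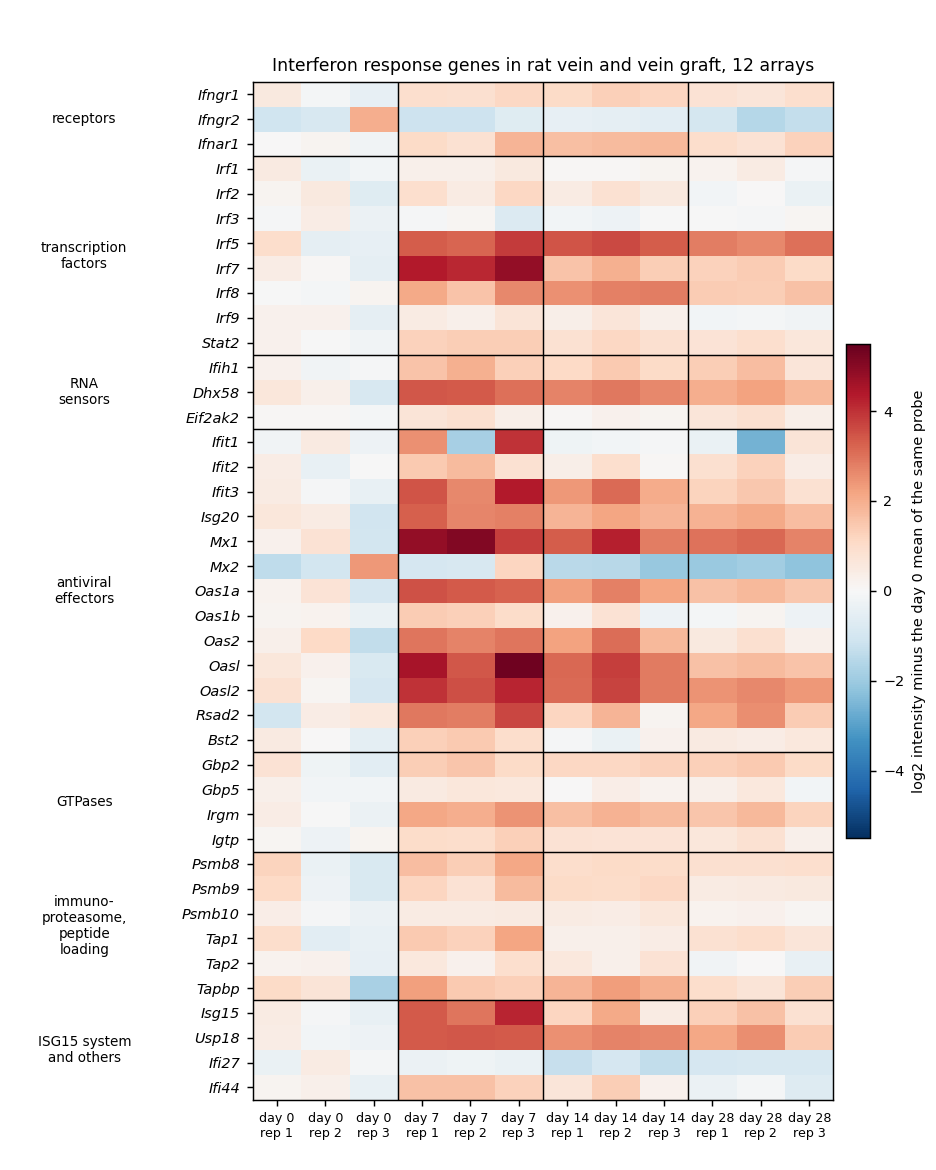
Each row is 1 of the 41 tested members, grouped by role, and each column 1 of the 12 arrays in order of day; colour is the log2 intensity minus the mean of the same probe over the 3 day 0 arrays. Antiviral effectors, Irf7, Isg15 and Usp18 are darkest on the day 7 arrays, Irf5 and Irf8 stay dark on day 14, and Mx2 and Ifngr2 are high on day 0 replicate 3.

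A receptor chain of each interferon class, Ifnar1 and Ifngr1, was higher in grafts on all 3 days. Ifnar1, a chain of the type I receptor, stood at 0.57, 0.67 and 0.34 on day 0, at 1.57, 1.36 and 2.40 on day 7, at 2.20, 2.25 and 2.33 on day 14 and at 1.51, 1.32 and 1.79 on day 28. All 9 graft arrays were above all 3 day 0 arrays. Its difference from day 0 was 1.25 ± 0.26 (adjusted p = 0.00471) at day 7, 1.73 ± 0.26 (adjusted p = 0.000605) at day 14 and 1.01 ± 0.26 (adjusted p = 0.0135) at day 28. Ifngr1, the ligand-binding chain of the interferon-gamma receptor, stood at 3.45, 2.83 and 2.48 on day 0, at 3.83, 3.81 and 4.04 on day 7, at 3.96, 4.21 and 4.10 on day 14 and at 3.71, 3.60 and 3.83 on day 28. The day 0 arrays were again the lowest, although day 0 replicate 1 at 3.45 came close to the day 28 arrays. Its log2 differences were 0.97 at day 7, 1.17 at day 14 and 0.79 at day 28 (adjusted p = 0.00956, 0.00312 and 0.0243). The call at day 28 was lost without any 1 of day 0 replicates 2 and 3 and day 28 replicates 1 and 3, with differences from 0.57 to 1.06 over all alternatives run.

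Ifngr2, the second chain of the interferon-gamma receptor, was not called on any day. It stood at -5.78, -5.55 and -2.66 on day 0, at -5.79, -5.82 and -5.35 on day 7, at -5.11, -5.15 and -5.25 on day 14 and at -5.64, -6.23 and -5.98 on day 28, so 1 array, the non-uniform day 0 replicate 3, lay far above the other 11. Ifng, interferon-gamma itself, was well above background on 1 array alone, day 28 replicate 3, and was not tested. It stood at -6.42, -6.44 and -8.00 on day 0, at -8.55, -8.53 and -8.07 on day 7, at -7.68, -6.39 and -6.67 on day 14 and at -8.96, -7.36 and -4.31 on day 28, close to or below background on 11 arrays, where the values have no order.

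Other interferon genes were looked at through a list of 11, of which 4 had a probe and 3 were tested. Ifna5, a type I interferon, stood at -6.28, -6.04 and -5.91 on day 0, at -6.18, -7.03 and -6.21 on day 7, at -2.82, -2.17 and -2.83 on day 14 and at -5.79, -6.11 and -5.26 on day 28. It was well above background on 8 of the 12 arrays (1 of 3 on each of days 0 and 7), and the 3 day 14 arrays were far above the other 9. Its log2 difference at day 14 was 3.47 ± 0.31 (adjusted p = 2.88e-05) from day 0 and 3.87 ± 0.31 (adjusted p = 0.000284) from day 7, both against days near background. With normexp background correction these were 1.25 and 0.43 and were not called (adjusted p = 0.256 and 0.699), while the 16 other alternatives of each kept the call. Interferon-alpha genes are near-identical copies, so the probe may read several of them. Ifna4, another interferon-alpha gene, and Ifnk were not called on any day, with log2 differences from day 0 of 0.11 at day 7, 0.49 at day 14 and -0.46 at day 28 for Ifna4. Ifnb1, interferon-beta, was not well above background on any array.

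Among the 8 transcription factors, 4 were higher on each graft day, namely Irf7, Irf5, Irf8 and Stat2, and 4 were not called on any day. Of all probes, 17.7%, 20.1% and 17.4% were called higher at days 7, 14 and 28. Irf7, which amplifies type I interferon production and is itself induced by interferon, stood at 1.50, 1.13 and 0.60 on day 0, at 5.43, 5.23 and 5.92 on day 7, at 2.65, 3.05 and 2.42 on day 14 and at 2.33, 2.48 and 2.13 on day 28. The 3 day 7 arrays lay above every other array without overlap, and all later graft arrays stayed above day 0. At day 7 Irf7 was 21.9-fold higher than in unoperated vein, a log2 difference of 4.45 ± 0.28 (adjusted p = 6.04e-06). At day 14 the difference from day 0 was 1.63 ± 0.28 (adjusted p = 0.00131), and at day 28 it was 1.24 ± 0.28 (adjusted p = 0.00736). Against day 7, Irf7 was 7.08-fold lower at day 14 (-2.82 ± 0.28 (adjusted p = 0.000677)) and 9.28-fold lower at day 28 (-3.21 ± 0.28 (adjusted p = 0.00161)). Both falls stayed called without each single array of the days compared. Within the scan that held 1 day 14 and 3 day 7 arrays the difference was -2.88.

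Irf5, which drives inflammatory genes in macrophages, and Irf8, a factor of monocyte and dendritic cell development, followed another course. Irf5 stood at -2.19, -3.63 and -3.58 on day 0, at 0.19, 0.06 and 0.71 on day 7, at 0.31, 0.49 and 0.21 on day 14 and at -0.34, -0.48 and -0.12 on day 28. Days 7 and 14 overlapped, and the difference from day 0 was 3.45 ± 0.35 (adjusted p = 8.7e-05) at day 7, 3.48 ± 0.35 (adjusted p = 6.51e-05) at day 14 and 2.82 ± 0.35 (adjusted p = 0.000373) at day 28. Irf8 stood at -2.62, -2.68 and -2.45 on day 0, at -0.49, -1.01 and 0.07 on day 7, at -0.07, 0.20 and 0.21 on day 14 and at -1.21, -1.25 and -0.97 on day 28. Its highest 2 arrays were of day 14, and its day 0 arrays lay close together. The difference from day 0 was 2.11 ± 0.25 (adjusted p = 0.000209) at day 7, 2.70 ± 0.25 (adjusted p = 3.82e-05) at day 14 and 1.44 ± 0.25 (adjusted p = 0.00208) at day 28. Irf8 was lower at day 28 than at day 14 by 1.26 ± 0.25 on the log2 scale (adjusted p = 0.0229), a call that was lost without any 1 of 5 of the 6 arrays, with a difference of -1.44 within the scan that held 2 arrays of each day. Irf5 at days 14 and 28 and Irf8 at day 14 were still called with the scan as a fixed block.

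Stat2, a subunit of ISGF3, rose by 1.31 at day 7, 0.94 at day 14 and 0.76 at day 28 on the log2 scale (adjusted p = 0.000355, 0.00192 and 0.00739). Its partner Irf9 was not called, with log2 differences of 0.50 at day 7, 0.43 at day 14 and -0.14 at day 28. Nor were Irf1, the early interferon-gamma target, Irf2, its antagonist at shared sites, or Irf3, which is held ready in resting cells and activated by phosphorylation. At day 7 their log2 differences were 0.35 for Irf1, 0.84 for Irf2 and -0.23 for Irf3. For 10 tested genes of Janus kinase and STAT signalling outside the members, the median log2 differences at days 7, 14 and 28 were 0.48, 0.45 and 0.73. Called higher on each graft day were 4 of the 10 (40.0%), against 17.7%, 20.1% and 17.4% of all probes. The 4 genes were Jak1 and Jak2, the receptor kinases, Stat4, and Ptpn6, a phosphatase of blood cells. Socs1, an inhibitor of the kinases, was lower at day 28 by 1.24 on the log2 scale, and by 0.82 without day 0 replicate 3, which lay at 1.36 against 0.10 and 0.11 on the other 2 day 0 arrays. That call was lost without day 28 replicate 1 or 2.

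**Figure D2:**
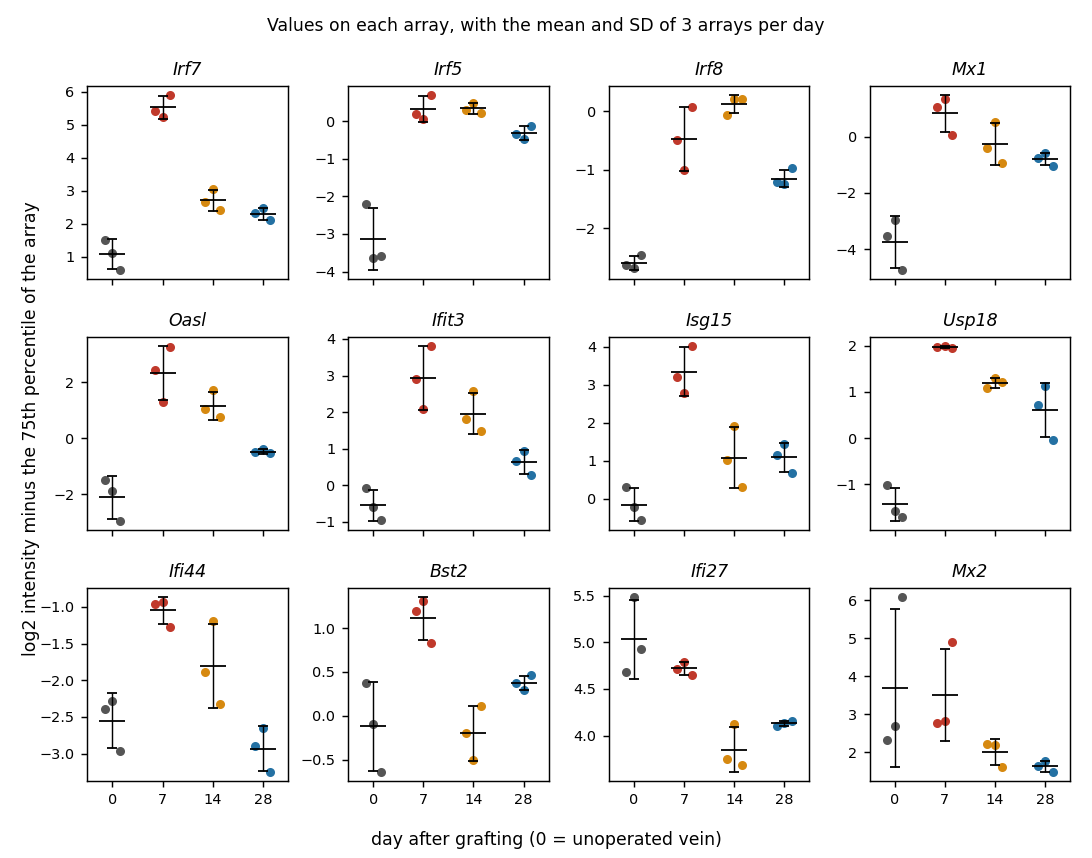
Each panel is 1 gene: points are the 3 arrays of each day (log2 intensity minus the 75th percentile of the array, a separate scale per panel), the horizontal mark is their mean and the bar 1 SD. Irf7, Isg15 and Bst2 stand high at day 7 and lower from day 14, Irf5 and Irf8 stay up at day 14, Ifi27 is lower at days 14 and 28, and Mx2 is high on 1 array each of days 0 and 7.

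All 3 tested RNA sensors were higher at day 7 and at day 28, and 2 of 3 at day 14. Called higher among all probes were 17.7% at day 7, 20.1% at day 14 and 17.4% at day 28. Dhx58, which encodes LGP2, a regulator of the cytosolic RNA sensors, stood at -2.43, -2.76 and -3.93 on day 0, at 0.37, 0.32 and -0.01 on day 7, at -0.33, -0.15 and -0.40 on day 14 and at -1.05, -0.82 and -1.24 on day 28. All graft arrays were above all day 0 arrays and the days followed each other downward from day 7 without overlap. Its difference from day 0 was 3.26 ± 0.33 (adjusted p = 8.3e-05) at day 7, 2.75 ± 0.33 (adjusted p = 0.000172) at day 14 and 2.00 ± 0.33 (adjusted p = 0.00162) at day 28. Ifih1, the sensor MDA5 for long double-stranded RNA, stood at -1.85, -2.29 and -2.16 on day 0, at -0.55, -0.16 and -0.80 on day 7, at -1.00, -0.68 and -1.05 on day 14 and at -0.74, -0.42 and -1.45 on day 28. The graft days overlapped each other and stayed above day 0. Its log2 differences were 1.60 at day 7, 1.19 at day 14 and 1.23 at day 28 (adjusted p = 0.00186, 0.00727 and 0.00764). Eif2ak2, the kinase PKR that stops translation on double-stranded RNA, rose least, by 0.64 at day 7 and 0.62 at day 28 (adjusted p = 0.0319 and 0.0342), with 0.14 at day 14. Its calls were lost without any 1 of 4 of the 6 arrays at either day.

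Sensing genes outside the members were counted from a list of 15, of which 10 were tested. On each graft day 6 of the 10 (60.0%) were higher than day 0, against 17.7%, 20.1% and 17.4% of all probes at days 7, 14 and 28. The genes called higher included the endosomal RNA sensors Tlr7, with log2 differences of 4.88 at day 7, 4.86 at day 14 and 3.47 at day 28, and Tlr3, with 2.11 at day 7, 2.26 at day 14 and 1.81 at day 28. The adaptors Mavs and Sting1 were not called on any day.

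Most antiviral effectors rose at day 7. Of 13 tested, 11 were higher at day 7, 7 at day 14 and 6 at day 28, with median log2 differences of 2.93, 1.97 and 1.18. The shares of all probes called higher on these days were 17.7%, 20.1% and 17.4%. Mx1, a GTPase that traps viral nucleocapsids, stood at -3.53, -2.96 and -4.75 on day 0, at 1.07, 1.34 and 0.07 on day 7, at -0.42, 0.54 and -0.92 on day 14 and at -0.76, -0.59 and -1.03 on day 28. All 9 graft arrays lay above all 3 day 0 arrays. It was 23.8-fold higher at day 7 than at day 0 (4.57 ± 0.51 (adjusted p = 0.000135)), with 3.48 ± 0.51 (adjusted p = 0.000524) at day 14 and 2.95 ± 0.51 (adjusted p = 0.00196) at day 28. Oasl, an oligoadenylate synthetase-like protein, stood at -1.48, -1.88 and -2.95 on day 0, at 2.45, 1.31 and 3.25 on day 7, at 1.05, 1.72 and 0.75 on day 14 and at -0.49, -0.38 and -0.53 on day 28. It was 21.8-fold higher at day 7 (4.45 ± 0.50 (adjusted p = 0.000141)) and its 3 day 28 arrays lay below all arrays of days 7 and 14. Against day 7 it was lower at day 28 by 2.81 ± 0.50 (adjusted p = 0.0247), a call that was kept in 2 of the 6 fits that left out 1 array of these days.

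Ifit3, which works with other IFIT proteins against viral RNA, stood at -0.09, -0.60 and -0.95 on day 0, at 2.90, 2.09 and 3.82 on day 7, at 1.82, 2.57 and 1.48 on day 14 and at 0.67, 0.93 and 0.29 on day 28. It rose by 3.48 ± 0.44 (adjusted p = 0.000287) at day 7 and 2.50 ± 0.44 (adjusted p = 0.00153) at day 14, while day 28 at 1.18 was not called (adjusted p = 0.0607), and it was 4.93-fold lower at day 28 than at day 7 (-2.30 ± 0.44 (adjusted p = 0.032)), called in 1 of 6 fits without 1 array. Oas1a and Oas1b are neighbouring synthetase genes with 2 protein-coding genes between them on chromosome 12. Oas1a, which makes oligoadenylates, stood at -3.44, -2.89 and -4.56 on day 0, at -0.13, -0.25 and -0.40 on day 7, at -1.38, -0.85 and -1.45 on day 14 and at -2.04, -1.86 and -2.14 on day 28. The arrays fell into 4 separate levels by day. Its difference from day 0 was 3.37 ± 0.36 (adjusted p = 0.000107), 2.41 ± 0.36 (adjusted p = 0.0006) and 1.62 ± 0.36 (adjusted p = 0.00703) at days 7, 14 and 28, and against day 7 it was lower at day 28 by 1.76 on the log2 scale (adjusted p = 0.0416). That call was lost without any 1 of the 6 arrays, with differences from -1.92 to -1.57 over all alternatives run.

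Oas1b, known in mice for resistance to flaviviruses, stood at -0.98, -0.97 and -1.51 on day 0, at 0.24, 0.17 and -0.12 on day 7, at -0.91, -0.34 and -1.41 on day 14 and at -1.25, -1.02 and -1.42 on day 28. Its day 7 arrays lay above all others and its later arrays overlapped day 0. It rose by 1.25 ± 0.28 (adjusted p = 0.00624) at day 7, and its day 28 level was lower than day 7 by 1.33 (adjusted p = 0.0432), again lost without any 1 of the 6 arrays. Bst2, tetherin, which holds budding virus at the cell surface, stood at 0.37, -0.09 and -0.64 on day 0, at 1.20, 1.31 and 0.83 on day 7, at -0.20, -0.50 and 0.11 on day 14 and at 0.37, 0.29 and 0.46 on day 28. It was 2.35-fold higher at day 7 than at day 0 (1.23 ± 0.27 (adjusted p = 0.00576)) and 2.48-fold lower at day 14 than at day 7 (-1.31 ± 0.27 (adjusted p = 0.0258)), the second call being kept in 1 of 6 fits without 1 array. Day 14 overlapped day 0.

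The other effectors called at day 7 were Oasl2 (3.89), Rsad2 (3.13), the exonuclease gene Isg20 (2.93), Oas2 (2.88) and Ifit2 (1.34), each as a log2 difference from day 0. Of these, Rsad2, which encodes viperin, was called again at day 28 (2.03) but not at day 14 (1.08), and Oas2 was well above background on 1 of 3 day 0 arrays. Ifit1 and Mx2 were not called on any day, and both had arrays far from the rest of their day. Ifit1 stood at 0.44, -3.93 and 1.89 on the day 7 arrays, against -2.29, -1.59 and -2.39 on the day 0 arrays. Mx2 stood at 2.78, 2.81 and 4.90 on the day 7 arrays, against 2.32, 2.69 and 6.10 on the day 0 arrays. The high arrays for Mx2 were the 2 with many non-uniform spots. The T cell gene Cd3g was high on the same 2 arrays, at 5.17 on day 7 replicate 3 and 5.80 on day 0 replicate 3, against -0.58 to 0.61 on the other 10. Whether the 2 patterns share a source was not tested.

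Guanylate-binding proteins and immunity-related GTPases, which attack vacuoles that hold microbes, were mostly higher in grafts: 3 of 4 tested were called higher on each graft day. Among all probes this share was 17.7%, 20.1% and 17.4% at days 7, 14 and 28. Irgm stood at -1.19, -1.62 and -1.91 on day 0, at 0.56, 0.41 and 0.91 on day 7, at 0.07, 0.35 and 0.17 on day 14 and at -0.04, 0.21 and -0.34 on day 28. All graft arrays lay above day 0, with differences of 2.21 ± 0.23 (adjusted p = 0.000106), 1.77 ± 0.23 (adjusted p = 0.000289) and 1.52 ± 0.23 (adjusted p = 0.00117) at days 7, 14 and 28. Gbp2 stood at 1.76, 0.71 and 0.40 on day 0, at 2.31, 2.49 and 2.01 on day 7, at 2.11, 2.12 and 2.23 on day 14 and at 2.25, 2.39 and 2.03 on day 28. Its graft arrays spanned 2.01 to 2.49 over all 3 days, and its log2 differences of 1.31 at day 7, 1.19 at day 14 and 1.26 at day 28 were all called (adjusted p = 0.00872, 0.0122 and 0.0108). Igtp rose less, by 1.09 at day 7, and Gbp5, at 0.58 at day 7, 0.18 at day 14 and 0.23 at day 28, was not called. The day 28 arrays of Irgm and of Igtp lay below their day 7 arrays, without a call between these days. The call of Igtp at day 28 (0.58) was lost under 9 of 12 alternatives.

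The immunoproteasome and peptide loading genes, which make and load peptides for class I molecules, were called higher mainly at day 7. Of 6 tested, 3 were higher at day 7, 1 at day 14 and 0 at day 28 by limma. Over all probes 17.7%, 20.1% and 17.4% were called higher at days 7, 14 and 28. The share of these 6 genes was thus above that of all probes at day 7, and with 1 of 6 it was near that of all probes at day 14. With 0 of 6 at day 28, so few genes cannot show a share below that of all probes. Between graft days 0 of the 6 were called. Psmb8, a catalytic immunoproteasome subunit, stood at 3.79, 2.21 and 1.73 on day 0, at 4.27, 3.95 and 4.70 on day 7, at 3.54, 3.65 and 3.60 on day 14 and at 3.48, 3.48 and 3.52 on day 28. Day 0 replicate 1 at 3.79 reached the level of later grafts while the other 2 day 0 arrays were far lower. Psmb8 was higher at day 7 by 1.73 ± 0.43 (adjusted p = 0.0115). Tapbp, the tapasin gene, stood at -0.09, -0.41 and -2.92 on day 0, at 1.10, 0.28 and 0.18 on day 7, at 0.75, 1.16 and 0.82 on day 14 and at -0.19, -0.45 and 0.21 on day 28. It was called at day 14 alone (2.05 ± 0.62 (adjusted p = 0.0245)), where day 0 replicate 3 at -2.92 was far below every other array. Without that array the difference was 1.16 (adjusted p = 0.0169), and the call was lost without any 1 of the 3 day 14 arrays.

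Psmb9 and Tap1 also rose at day 7, by 1.24 and 1.63, and Psmb10, Tap2 and, at day 7, Tapbp did not pass. These 2 genes share a promoter region, in which they run in opposite directions, and lie side by side with Psmb8 and Tap2 on chromosome 20. On day 0 replicate 1, Psmb9 at 1.75 and Tap1 at 2.22 were above the other 2 day 0 arrays, which were at or below 0.37 and 0.83. The median macrophage marker was also highest on that day 0 array, as given below. Psmb9 at day 7 overlapped day 0 and kept its call under 4 of 12 alternatives. Outside the members, 13 genes of class I presentation were tested. At day 7, 8 were higher, at day 14 there were 6 higher and 1 lower, and at day 28 there were 3 higher. The shares higher were 61.5%, 46.2% and 23.1%, against 17.7%, 20.1% and 17.4% of all probes. At day 14, 17.4% of all probes were lower. Class I heavy chains led, with RT1-CE10 at 2.76 at day 7, 2.44 at day 14 and 1.48 at day 28 and RT1-CE1 at 2.32 at day 7, 1.72 at day 14 and 1.00 at day 28 on the log2 scale, and these genes are near-identical copies whose probes may cross-read. B2m, the shared light chain, was not called.

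The ISG15 system and other induced genes had 3 of 4 tested members higher at day 7, where 17.7% of all probes were higher. Isg15, a ubiquitin-like protein attached to other proteins, stood at 0.30, -0.21 and -0.57 on day 0, at 3.20, 2.78 and 4.03 on day 7, at 1.02, 1.91 and 0.30 on day 14 and at 1.15, 1.44 and 0.68 on day 28. It was 11.3-fold higher at day 7 than at day 0 (3.50 ± 0.44 (adjusted p = 0.000294)). Day 14 replicate 3 was at the level of day 0 replicate 1, and the difference at day 14, 1.24 ± 0.44 (adjusted p = 0.0494), kept its call under 3 of 12 alternatives. Against day 7, Isg15 was 4.8-fold lower at day 14 (-2.26 ± 0.44 (adjusted p = 0.0221)) and 4.75-fold lower at day 28 (-2.25 ± 0.44 (adjusted p = 0.0374)). The first of these calls was kept in 3 and the second in 1 of 6 fits without 1 array.

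Usp18, the protease that removes ISG15 and also damps the type I receptor, stood at -1.02, -1.58 and -1.70 on day 0, at 1.96, 2.00 and 1.95 on day 7, at 1.08, 1.29 and 1.21 on day 14 and at 0.71, 1.13 and -0.03 on day 28. The 3 day 7 arrays were nearly equal and above all others. Its difference from day 0 was 3.40 ± 0.28 (adjusted p = 2.52e-05) at day 7, 2.63 ± 0.28 (adjusted p = 8.52e-05) at day 14 and 2.04 ± 0.28 (adjusted p = 0.000646) at day 28, and it was lower at day 28 than at day 7 by 1.37 (adjusted p = 0.0432), called in 1 of 6 fits without 1 array. Ifi44 stood at -2.39, -2.28 and -2.97 on day 0, at -0.96, -0.93 and -1.27 on day 7, at -1.89, -1.20 and -2.33 on day 14 and at -2.89, -2.65 and -3.25 on day 28. It rose by 1.49 ± 0.31 (adjusted p = 0.00438) at day 7, and its day 28 arrays were 3.67-fold lower than day 7 (-1.88 ± 0.31 (adjusted p = 0.0186)), called in 3 of 6 fits without 1 array, and overlapped day 0.

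Ifi27, strongly induced by type I interferon in other settings, ran the other way. It stood at 4.68, 5.49 and 4.93 on day 0, at 4.71, 4.79 and 4.65 on day 7, at 3.75, 4.12 and 3.68 on day 14 and at 4.10, 4.14 and 4.16 on day 28. It was not called at day 7 (-0.32), and it was lower than in unoperated vein by 1.18 ± 0.22 at day 14 (adjusted p = 0.00198) and by 0.90 ± 0.22 at day 28 (adjusted p = 0.0101). With quantile normalization and in the authors' deposited table it kept its sign but was not called at either day. Most markers of the vessel wall were lower on the same days. Of all probes, 17.4% were lower at day 14, and 16.5% were lower and 17.4% higher at day 28. All 5 tested smooth muscle markers were lower at both days, 4 of 6 endothelial markers were lower at day 14, and 2 were lower and 1 higher at day 28. Their part in the fall of Ifi27 was not tested.

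**Figure D3:**
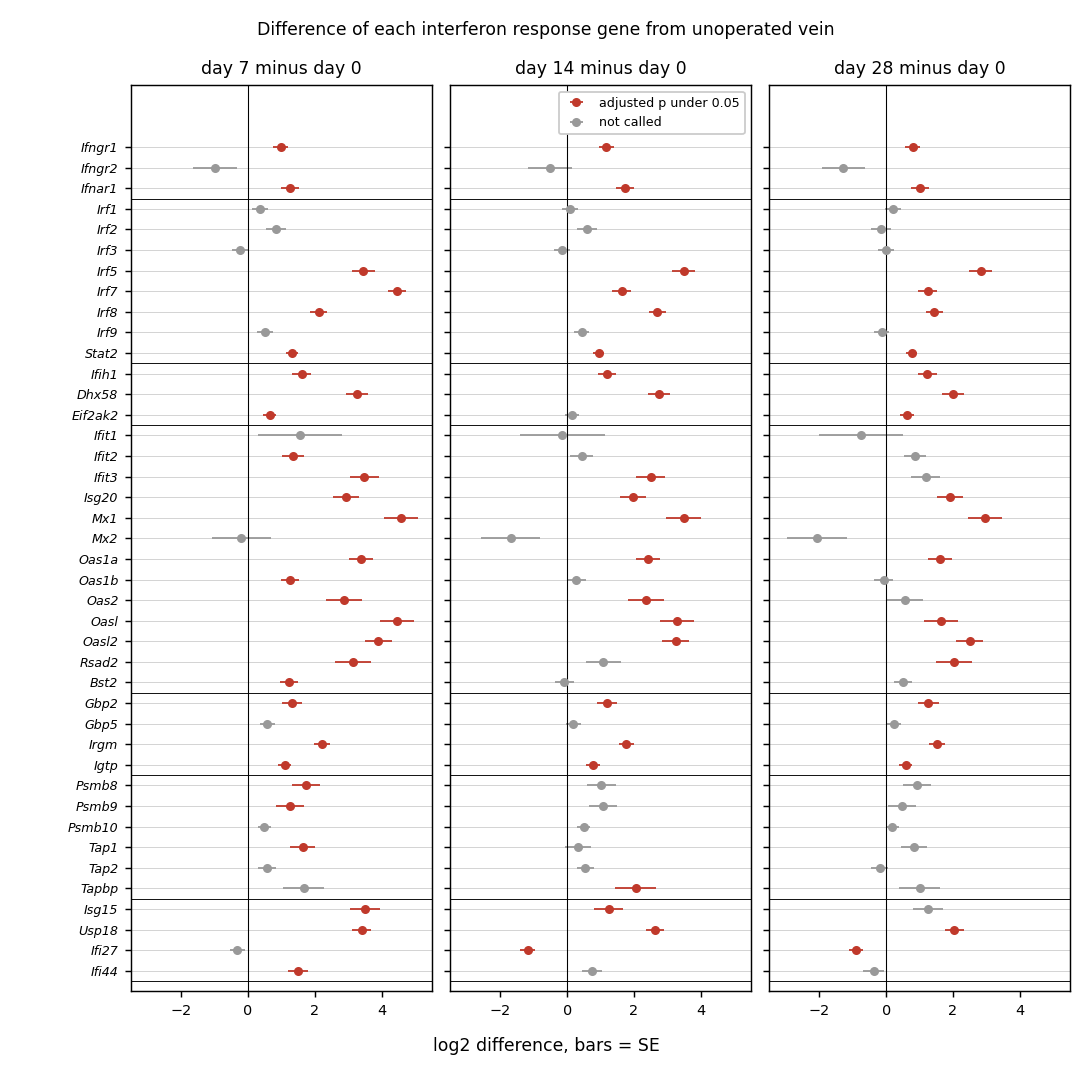
The 3 panels show days 7, 14 and 28 minus day 0 for each of the 41 tested members, as log2 differences with SE bars; filled red points had an adjusted p under 0.05 in limma and grey points did not. The number of members called higher is 29 at day 7, 21 at day 14 and 19 at day 28, and Ifi27 is the member called lower at days 14 and 28.

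Differences between graft days do not use the day 0 values. Their SE and p-values do, as all 12 arrays share the estimate of the spread. The mean of 33 members was lower at day 14 than at day 7, that of 29 was lower at day 28 than at day 14, and that of 40 was lower at day 28 than at day 7, all but Irf3. The members' median log2 differences were -0.51, -0.38 and -0.76, against 0.05, -0.09 and 0.01 over all probes. At day 14 against day 7, 3 members were called lower (Irf7, Bst2 and Isg15) and 0 higher by limma, where 1.88% of all probes were lower and 1.38% higher. At day 28 against day 14, 1 was lower (Irf8) and 0 higher, where 2.08% of all probes were lower and 2.4% higher. At day 28 against day 7, 8 were lower (Irf7, Ifit3, Oas1a, Oas1b, Oasl, Isg15, Usp18 and Ifi44) and 0 higher, where 1.03% of all probes were lower and 0.75% higher. At an unadjusted p under 0.05, 15, 10 and 22 members were lower and 1, 1 and 0 were higher in these 3 comparisons. All probes were not counted at that threshold, so these counts have no share to be set against.

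These counts were sensitive to single arrays. The 8 falls between day 7 and day 28 became 1 without day 7 replicate 1, day 28 replicate 1 or day 28 replicate 3, and 3 without day 7 replicate 3 or day 28 replicate 2. The 3 falls between day 7 and day 14 became 1 without day 7 replicate 1, day 14 replicate 1 or day 14 replicate 3. Leaving out the 2 arrays with many non-uniform spots gave 10 members lower and 2 higher at day 14 against day 7, 13 lower at day 28 against day 14 and 12 lower at day 28 against day 7, where 7.28%, 11.4% and 3.29% of all probes were lower. At day 14 against day 7, 4.24% of all probes were then higher. With the scan as a fixed block 0 members were called in any of these 3 comparisons. At an unadjusted p under 0.05, 9, 11 and 13 members were lower with that block, again without a count of all probes. Inside single scans, 33 of 41 members were lower at day 14 than at day 7 (1 against 3 arrays, median -0.58) and 29 of 41 were lower at day 28 than at day 14 (2 against 2 arrays, median -0.33). No scan held both day 28 and day 7.

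Further interferon-stimulated genes outside the members were counted from a list of 38, of which 28 were tested. At day 7, 19 were higher and 1 lower, 15 were higher and 1 lower at day 14, and 7 were higher and 1 lower at day 28, with medians of 1.29, 0.87 and 0.62. Called higher were 67.9%, 53.6% and 25.0% of the list on these days, while over all probes it was 17.7%, 20.1% and 17.4%. Cxcl10, a chemokine that draws T cells, stood at -1.95, -3.67 and -3.08 on day 0, at 1.18, 1.35 and 1.28 on day 7, at -0.46, -0.31 and -0.57 on day 14 and at -0.60, -0.21 and -1.14 on day 28. It was 18.1-fold higher at day 7 than at day 0 and 3.29-fold lower at day 14 than at day 7 (adjusted p = 0.0381). Slfn4 and Cmpk2 were lower at day 28 than at day 7 as well, by 2.78 and 1.88 on the log2 scale. The fall of Cxcl10 between days 7 and 14 was lost without any 1 of the 6 arrays, and those of Slfn4 and Cmpk2 without any 1 of 4. Epsti1, by contrast, had log2 differences from day 0 of 4.98 at day 7, 5.12 at day 14 and 3.87 at day 28 and was not called between graft days. The gene that was lower on each graft day was Tnfsf10, which encodes the death ligand TRAIL, with -1.46 at day 7, -1.48 at day 14 and -1.38 at day 28. Cxcl9, an interferon-gamma target, was not called on any day.

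Cell type markers moved in the same arrays. For the counts that follow, 17.7%, 20.1% and 17.4% of all probes were higher than day 0 at days 7, 14 and 28. The shares lower were 15.4%, 17.4% and 16.5%. Of 11 tested macrophage markers, 10 were higher than day 0 at day 7, 11 at day 14 and 9 at day 28, with median log2 differences of 3.34, 3.97 and 3.24, and 0 of 11 were called between graft days by limma. Their means were nevertheless lower at day 28 than at day 14 for 11 of 11 (median -1.02), and lower at day 28 than at day 7 for 9 of 11 (median -0.58). Their summed level, in multiples of the array's 75th percentile, ranged over 24.1 to 121 at day 0, 244 to 518 at day 7, 405 to 480 at day 14 and 196 to 273 at day 28. The median macrophage marker on day 0 replicate 1 was 1.74 above its day 0 mean on the log2 scale, where the other 2 day 0 arrays were at -0.78 and -1.16. Of 12 tested T and NK cell markers, 9, 10 and 5 were higher at days 7, 14 and 28, with summed levels of 3.71 to 58.5 at day 0, 10.8 to 50.6 at day 7, 16.6 to 17.1 at day 14 and 6.89 to 9.01 at day 28. Cd3g carried the top of the first 2 ranges, on the 2 non-uniform arrays. Without it the sums were 2.78 to 9.13 at day 0, 9.65 to 14.5 at day 7, 15.1 to 16.0 at day 14 and 6.06 to 8.35 at day 28. Nkg7 was lower at day 28 than at day 14, and Ncr1 and Prf1 were lower at day 28 than at day 7. For 6 general leukocyte genes, 5 were higher on each graft day. All 5 tested smooth muscle markers were lower on each graft day, with summed levels of 668 to 1050 at day 0 and 94.4 to 223 over the graft days, and so were 4, 4 and 2 of 6 endothelial and 3, 4 and 3 of 4 adipocyte markers at days 7, 14 and 28. The endothelial cadherin gene Cdh5 was higher at day 28, by 0.86 on the log2 scale, a call kept under 10 of 18 alternatives. Neutrophil markers had 2 of 3 higher at day 7, 1 at day 14 and 0 at day 28, with a median of -2.51 at day 28 against day 7. Of 3 tested markers listed for plasmacytoid dendritic cells, Spib, which B cells also use, was higher at days 7 and 28, and Ccr9 was well above background on 1 array. The part of these cells in the levels of the interferon response genes was not tested.

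**Figure D4:**
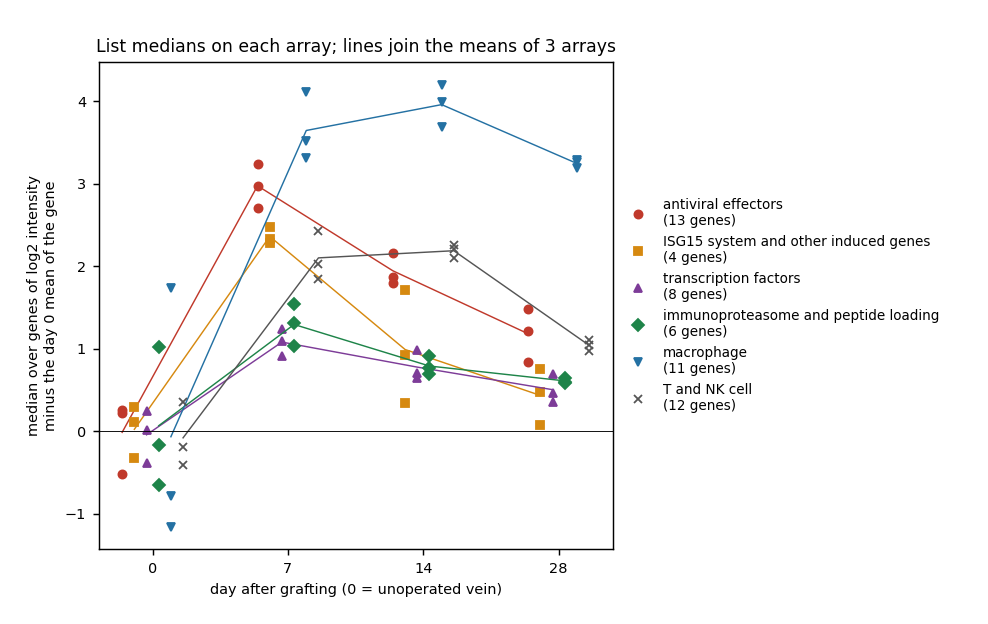
Points are single arrays: the median over the tested genes of a list of the log2 intensity minus each gene's day 0 mean, for 4 roles of interferon response genes and 2 marker lists; lines join the means of 3 arrays per day, and days are spaced evenly. The antiviral effectors stand at 2.71 to 3.24 on day 7, 1.80 to 2.16 on day 14 and 0.84 to 1.48 on day 28, while the macrophage markers stand at 3.31 to 4.11, 3.68 to 4.20 and 3.19 to 3.28.

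Per array, the median of the 13 antiviral effectors relative to their day 0 means was 2.71 to 3.24 on day 7, 1.80 to 2.16 on day 14 and 0.84 to 1.48 on day 28, so the 3 graft days did not overlap. The macrophage median was 3.31 to 4.11 on day 7, 3.68 to 4.20 on day 14 and 3.19 to 3.28 on day 28, so days 7 and 14 overlapped and the day 28 arrays lay below both. The 8 transcription factors stood at 0.91 to 1.24, 0.64 to 0.98 and 0.36 to 0.69 on these days, and the 6 immunoproteasome and loading genes at 1.03 to 1.54, 0.69 to 0.91 and 0.59 to 0.64. Within a day the arrays were not equal. On day 0, replicate 3 was the lowest array for 30 of 41 members. On day 14, replicate 2 was the highest for 27, and on day 28, replicate 2 was the highest for 29 and replicate 3 the lowest for 29. For the antiviral effectors alone, day 14 replicate 2 was the highest for 10 of 13 and day 28 replicate 2 for 11 of 13. These 2 arrays shared a scan with day 28 replicate 1 and with day 14 replicate 3, which was the lowest of its day for 11 of 13.

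Several members lie next to each other in the genome. On chromosome 12 Oasl and Oasl2 are adjacent protein-coding genes, and their log2 differences from day 0 were 4.45 at day 7, 3.28 at day 14 and 1.64 at day 28 for Oasl and 3.89 at day 7, 3.24 at day 14 and 2.50 at day 28 for Oasl2. In the Ifit cluster of chromosome 1, Ifit2 and Ifit3 are adjacent, with 1.34 at day 7, 0.43 at day 14 and 0.85 at day 28 for Ifit2 and 3.48 at day 7, 2.50 at day 14 and 1.18 at day 28 for Ifit3. On chromosome 11 Mx1 and Mx2 have 1 protein-coding gene between them, and Mx1 was called on each graft day while Mx2 was called on none. Whether 2 neighbours differed in their response was not tested.

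Set beside the promoter windows, an ISRE core was found both among members that rose at day 7 and among members that were not called. Among tested members with a window, 16 of 24 called higher at day 7 (66.7%) held an ISRE core, and so did 5 of the 9 not called (55.6%). Of the 6 members with a window that were lower at day 28 than at day 7, 5 held one, all but Oasl. Mx1 and Oasl, with 2 of the largest rises at day 7, had no match to either motif in their windows, nor did Irf5, and Ifi27, which fell, had 2 ISRE cores at 169 and 84 bases before its start. No match in a window says only that these letters are not there. These are counts over few genes, given without a test.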

How the data were processed

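The 12 deposited scanner tables give linear spot intensities. The authors' software was Agilent Feature Extraction, version 11.0.1.1 in the submitters' processing notes, and the processed intensity was already corrected for background, per the file headers. A second deposited table holds the authors' processed values, log2 as judged from the values (column medians 7.149 to 7.153), whose normalization is not given in the sources used here; each of its 12 columns correlated best with its own array (0.9983 to 0.9995).

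Control spots and 7348 outlier spots were left out, spots of a probe were averaged, and log2 intensity minus the 75th percentile of the array was fitted by day with limma 3.58.1 in R 4.3.3 (8 residual and 2.32 prior degrees of freedom), with Benjamini-Hochberg adjustment over 21063 probes well above background on at least 3 arrays. Of 24684 probes, 14286 matched 1 symbol of a RefSeq gene table (GRCr8) by accession, 0 several and 10398 none. Python 3.11.15, pandas 2.3.3 and Matplotlib 3.10.9 were used for reading and plotting. The number of arrays limits the precision.

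All members may be named; values of every array are given for the 2 members of a role with the largest called difference from day 0, for members called between graft days, and for Ifng. Genes singled out beyond that (Ifi27, Ifit1, Mx2, Ifngr2, Cd3g, Ifna5, Cxcl10, Socs1, Cdh5, Nkg7, Ncr1, Prf1) were chosen after their values were seen. So were genes named from the lists as called, among them Tlr7, Tlr3, RT1-CE10, RT1-CE1, Slfn4, Cmpk2, Epsti1, Tnfsf10 and Spib. The members, the lists for interferons, signalling, sensing, further stimulated genes and class I presentation, and the marker lists were chosen with earlier results of these data known. Some genes of these lists are not reported here. Alternatives were background correction (normexp, offset 50, on median signals, as the tables hold no mean signal), normalization, filter, scan as a block, array weights, arrays left out and the authors' table. Averaging several probes of a gene was not run, since each member had 1 probe.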

Additional observations from a re-analysis of the deposited data

How the results depend on the processing

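No member called in the main setting changed sign under any alternative run. For day 7 against day 0, the count of members called higher was 0 with the scan as a fixed block and 0 with the lone scan of day 0 replicate 3 joined to that of the other day 0 arrays (an alternative chosen after seeing the data), against 29, with 27 to 33 over leaving out single arrays. For day 14 against day 0 these 2 blocks gave 3 and 2 members higher, against 21, and 19 to 25 without single arrays. For day 28 against day 0 they gave 2 and 3 higher, against 19, normexp gave 11, and single arrays 14 to 26. Ifi27, the 1 member lower at days 14 and 28, gave a count of 0 on both days with quantile normalization, the authors' deposited table and both blocks, and at day 28 also with normexp and with only the 2 days fitted; 2 were lower at day 28 without the 2 non-uniform arrays, and 1 to 3 without single arrays (3 without day 0 replicate 1).

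At day 14 against day 7, members lower were 3 in the main setting, 1 with normexp and 0 with either block. They were 10 without the 2 non-uniform arrays (7.28% of all probes lower) and 28 with array weights (24.8%). The weights lay between 0.08 and 25.43. Members higher were 0 in the main setting, 2 without the 2 non-uniform arrays and 3 with array weights. In the last 2 of these settings 4.24% and 25.8% of all probes were higher. Single arrays gave 1 to 3 lower and 0 to 2 higher (2 without day 7 replicate 3). At day 28 against day 14, members lower were 1, 2 with quantile normalization and with the authors' deposited table, and 0 with either block. They were 15 with only the 2 days fitted, 13 without the 2 non-uniform arrays and 24 with array weights. Over all probes 16.2%, 11.4% and 44.3% were lower in these 3 settings. Without single arrays 0 to 1 members were lower (0 without day 14 replicate 1, 2 or 3 or day 28 replicate 1 or 2). Members higher were 0 in the main setting, 1 of 41 with only the 2 days fitted and 8 of 41 with array weights. Over all probes 14.0% and 33.7% were higher in the last 2 settings, above the shares of the members. At day 28 against day 7, members lower were 8, 2 with normexp, 0 with either block, 2 with the scan as a random block (consensus correlation 0.169), 5 with only the 2 days fitted, 33 with array weights (35.4% of all probes lower), and 1 to 6 without single arrays. The cause of these shifts was not tested.

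Over called members and single alternatives, 1185 values kept their call or, inside 1 scan where no test was run, lay within 1 SD of the main value. Another 320 kept their sign without the call, and 11 values inside 1 scan moved by more than 1 SD. No paired analysis was run. Day 0 veins came from control rats and the graft times are described as independent. The labels, which give every array replicate number 1, pair no arrays. Of 41 members, Oas2, Ifngr2 and Irf2 were near background on part of the arrays, which limits their differences from day 0.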
